A study of Mus musculus with 6 samples.

Results

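The genes described here are 9 markers of T and B lymphocytes in inguinal white adipose tissue (iWAT), 6 of T cells (*Cd3d*, *Cd3e*, *Cd3g*, *Cd4*, *Cd8a* and *Lck*) and 3 of B cells (*Cd79a*, *Cd79b* and *Ms4a1*). They were found by symbol in the deposited table of gene expression, which holds 19445 loci, and where a symbol stood on several rows the one with the highest mean was taken. Of the 9 genes, 8 had a row of their own, and *Cd79a* was found only on a row that it shares with its neighbour *Arhgef1*. The tissue came from 3 *Hlx* transgenic (TG) and 3 wild-type (WT) littermate mice, all 12 weeks old, and RNA of each mouse was sequenced as its own library. The transgene puts *Hlx*, a homeobox transcription factor, behind the aP2 (*Fabp4*) promoter, which drives it in fat, so no lymphocyte gene was targeted. The embryos were of mixed C57BL/6 and SJL background and the line was backcrossed to C57BL/6. Expression is given as FPKM, read density scaled to the length of the transcript and to the mapped reads of the library, and its changes as the TG minus WT difference of log2(FPKM + 1), tested with limma over 11692 loci, those whose mean FPKM exceeded 1 in either genotype.

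*Hlx* was at 79.6 to 110 FPKM in the TG mice and at 6.88 to 8.14 FPKM in the WT mice (log2 fold change 3.51, limma adjusted p = 0.000106). Adipocyte markers were abundant in every library, with *Fabp4* at 19297 to 29363 FPKM and *Adipoq*, which encodes the hormone adiponectin, at 1279 to 2911 FPKM. The labels call all mice male, but *Xist*, the RNA of the inactive X chromosome, was at 20.2 to 33.6 FPKM in all 6 libraries and 0 of 28 Y chromosome loci had a value above 0. Both genotypes were alike in this.

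Lymphocytes are told apart by the receptor they carry. On T cells the antigen receptor is held at the surface by the CD3 chains, which pass its signal into the cell, while the coreceptors CD4 and CD8 mark helper and cytotoxic cells and bring in the kinase Lck. On B cells the membrane antibody signals through the paired chains CD79A and CD79B, and CD20, the product of *Ms4a1*, is a surface protein of mature B cells. Fat holds resident lymphocytes, and the inguinal fat pad of the mouse also encloses a lymph node. Whether the node was taken out before RNA extraction is not given in the sources used here, and in whole tissue fewer cells of a type and less RNA per cell cannot be told apart.

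The 3 CD3 genes lie side by side on chromosome 9. *Cd3g* and *Cd3d* are read away from each other with starts 1354 bases apart, and *Cd3e* follows 11400 bases beyond the end of *Cd3d*. Their promoters are printed because their mRNA levels were compared as a group, together with those of *Cd8a* and *Lck*. RefSeq promoters (GRCm38.p6) were matched for 6 of the 9 genes, and *Cd4*, *Cd79b* and *Ms4a1* had none. Each line gives the 100 bases before the start, 5′ to 3′ on the gene's strand. For *Cd3e*, 16 bases lie between the window and the matched RefSeq start. Capitals mark the octamer ATGCAAAT, the E-boxes CAGGTG and CAGCTG, the RUNX letters TGTGGT and the TCF letters CTTTGA, on either strand. The windows were chr9:44980432-44980531 (minus strand), chr9:44981686-44981785 (plus), chr9:45009628-45009727 (minus), chr6:71373327-71373426 (plus) and chr4:129573642-129573741 (minus, the farther upstream of the 2 *Lck* starts).
Cd3g: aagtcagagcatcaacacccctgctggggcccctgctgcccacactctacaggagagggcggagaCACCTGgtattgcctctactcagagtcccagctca
Cd3d: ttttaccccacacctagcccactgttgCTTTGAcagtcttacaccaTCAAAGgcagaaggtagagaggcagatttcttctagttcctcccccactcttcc
Cd3e: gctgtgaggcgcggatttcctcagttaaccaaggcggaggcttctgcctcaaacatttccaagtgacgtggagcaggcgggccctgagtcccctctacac
Cd8a: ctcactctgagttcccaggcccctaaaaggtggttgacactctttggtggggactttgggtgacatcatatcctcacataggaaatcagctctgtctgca
Lck: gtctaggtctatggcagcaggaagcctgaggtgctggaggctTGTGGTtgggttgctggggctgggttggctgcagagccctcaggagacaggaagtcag
The *Cd3g* window held 1 CAGGTG, which is found in 7.03% of 32851 mouse promoter windows of this length. The *Cd3d* window held CTTTGA 2 times (in 4.97% of windows) and that of *Lck* held 1 TGTGGT (in 5.61%). No window printed held ATGCAAAT (in 0.645%) or CAGCTG (in 5.81%), and those of *Cd3e* and *Cd8a* held none of the 5. The letters CCGGAA (in 7.23%), TATAAA (in 5.56%), CCAAT (in 18.9%) and AGATAA (in 3.59%) were also searched and found in none of these windows, while GGAA, found in 66.8% of windows, stood 2 times in each except that of *Cd3g* and is not in capitals. No searched motif was found in all 3 of the CD3 windows.

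None of the 6 T cell genes passed the test in either direction, against 7.03% of all tested loci that were called lower and 11.6% that were called higher in TG mice. At an unadjusted p under 0.05, limma had 1 of the 6 lower, against 16.8% of all loci. Their median log2 fold change was −0.24, while that of all tested loci was −0.01. One of the 6, *Cd4*, had no overlap between the genotypes, which 20.1% of all tested loci showed in the same direction.

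*Cd3e* (chr9:44998741-45009590), a CD3 chain of every T cell receptor complex, was at 34.5, 52.1 and 49.3 FPKM in TG mice 1, 2 and 3 and at 49.7, 57.2 and 52.7 FPKM in WT mice 1, 2 and 3. TG mouse 1 was the lowest of the 6, TG mouse 3 was just below the lowest WT mouse, and TG mouse 2 lay in the WT range. The log2 fold change was −0.25 (SE 0.16, limma adjusted p = 0.298), with a 95% interval of −0.62 to 0.13.

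*Cd3g* (chr9:44969572-44980431) was at 34.6, 58.3 and 44.0 FPKM in the TG and at 47.4, 62.1 and 62.2 FPKM in the WT mice. The groups overlapped through TG mouse 2, and the log2 fold change was −0.34 (SE 0.20, adjusted p = 0.259). *Cd3d* (chr9:44981786-44987791) was at 13.9, 21.5 and 19.3 FPKM in the TG and at 18.8, 22.8 and 19.2 FPKM in the WT mice, so that TG mice 2 and 3 both lay inside the WT range. Its log2 fold change was −0.16 (SE 0.16, adjusted p = 0.507), and without TG mouse 1 it was 0.01. The ratios among the 3 CD3 chains all overlapped between the genotypes. *Cd3d* stood at 0.402 of *Cd3e* on average in TG and at 0.380 in WT mice, and *Cd3e* at 1.00 and 0.940 of *Cd3g*. The ratio of *Cd3d* to *Cd3g* differed most, at 0.403 in TG and 0.357 in WT mice. Its log2 difference was 0.18, and 0.07 to 0.26 as each mouse was left out.

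*Lck* (chr4:129548344-129573641), the kinase that begins signalling at the T cell receptor, was at 29.2, 44.3 and 38.1 FPKM in the TG and at 36.9, 52.1 and 41.2 FPKM in the WT mice. The groups overlapped, with mouse 2 the highest of each (log2 fold change −0.22, SE 0.18, adjusted p = 0.407). *Cd8a* (chr6:71353000-71379171), a chain of the coreceptor of cytotoxic T cells, was at 13.9, 24.5 and 21.6 FPKM in the TG and at 16.6, 23.5 and 22.8 FPKM in the WT mice. Here a TG mouse was the highest of all, and the genotypes had means of 19.98 ± 5.45 and 20.95 ± 3.82 FPKM (SD, n = 3 each). The log2 fold change was −0.09 (SE 0.22, adjusted p = 0.804, 95% interval −0.61 to 0.44), and it was 0.14 without TG mouse 1 and 0.0004 without WT mouse 2.

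*Cd4* (chr6:124864693-124888209), the coreceptor of helper T cells, differed from the other T cell genes in its values. It was at 8.17, 15.4 and 13.6 FPKM in the TG and at 17.2, 21.9 and 20.4 FPKM in the WT mice. Every TG mouse was below every WT mouse, and the means of 12.4 ± 3.75 and 19.8 ± 2.44 FPKM (SD, n = 3 each) were 37.6% apart. The log2 fold change was −0.67 (SE 0.22, 95% interval −1.19 to −0.16), with a limma adjusted p of 0.0712, which did not pass the threshold of 0.05. It passed without TG mouse 2 (−0.84, adjusted p = 0.0434). The table has another *Cd4* row for the same locus, at 7.66, 15.9 and 12.1 FPKM in the TG and 15.3, 17.1 and 20.2 FPKM in the WT mice, where the groups overlapped (log2 fold change −0.57, adjusted p = 0.132).

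**Figure D1:**
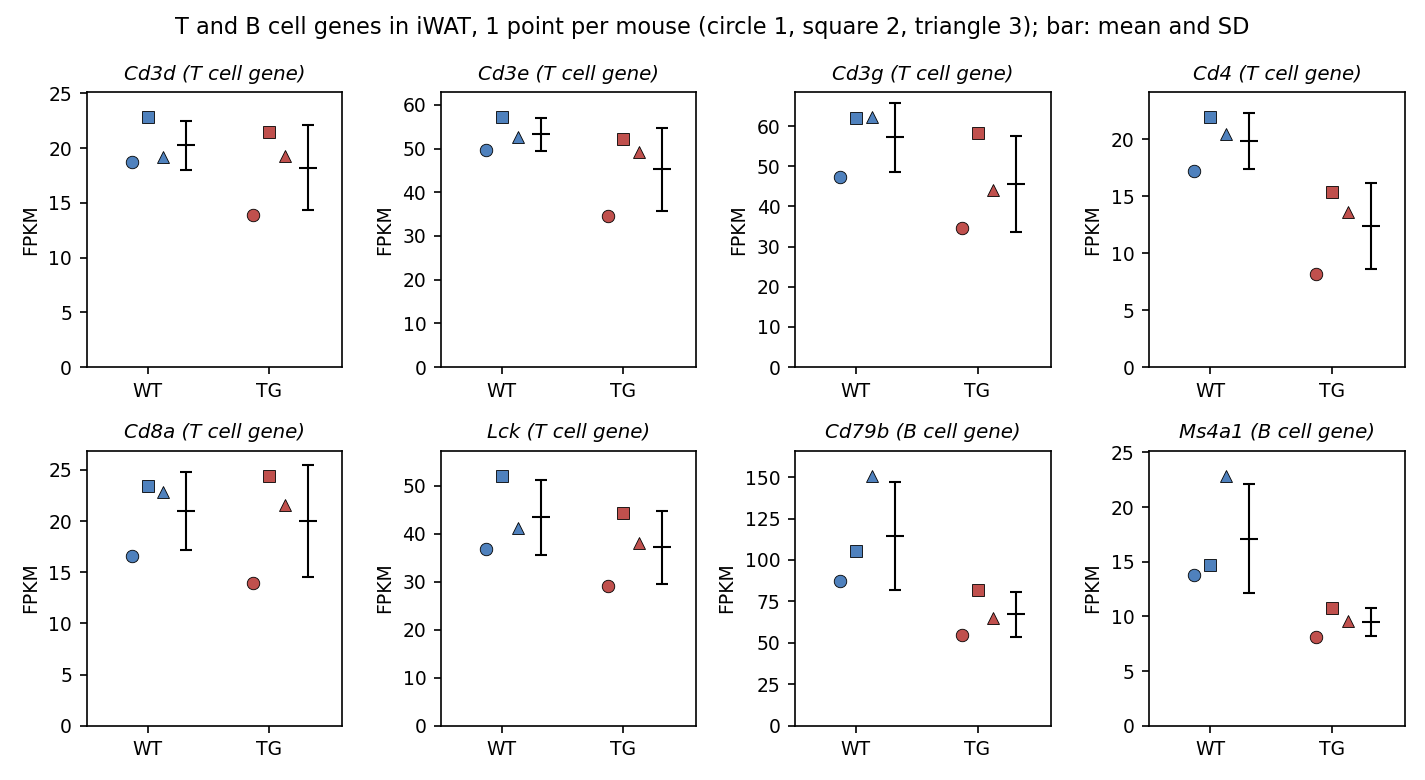
FPKM of the 6 T cell and 2 B cell genes in each WT (blue) and TG (red) mouse, each panel on its own axis from 0, with the mean and SD (n = 3) beside the points. In Cd4, Cd79b and Ms4a1 all TG points lie below all WT points, and TG mouse 1 (circle) is the lowest of the 6 mice in every panel.

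Both B cell genes with a row of their own had lower values in all TG mice than in any WT mouse, and 1 of the 2 passed the test. Over all tested loci, 20.1% lay apart in this direction and 7.03% were called lower. *Ms4a1* fell from 17.1 ± 5.02 FPKM in WT to 9.47 ± 1.29 FPKM in TG mice (SD, n = 3 each), or by 44.7%. Its values were 8.14, 10.7 and 9.55 FPKM in the TG and 13.8, 14.7 and 22.9 FPKM in the WT mice, with WT mouse 3 the highest. The log2 fold change was −0.76 (SE 0.19, 95% interval −1.22 to −0.31, limma adjusted p = 0.0361). The call was lost without TG mouse 1 (adjusted p = 0.1001), without TG mouse 3 (0.0924), without WT mouse 2 (0.0597) and with no filter on low values (0.0653). The *Ms4a1* row covers a locus of 103068 bases (chr19:11196817-11299884), far longer than the gene at chr19:11249675-11266241, and the row of *Ms4a5* in the same locus was listed at 0 in all 6 mice.

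*Cd79b* (chr11:106311341-106314529), a signalling chain of the B cell receptor, was the most abundant of the 8 genes per length in both genotypes. It was at 54.6, 81.8 and 64.9 FPKM in the TG and at 87.2, 105 and 151 FPKM in the WT mice. The groups did not overlap, the means of 67.1 ± 13.7 and 114 ± 32.9 FPKM (SD, n = 3 each) were 41.4% apart, and WT mouse 3 again stood highest. The log2 fold change of −0.74 (SE 0.23, 95% interval −1.27 to −0.21) had a limma adjusted p of 0.0609. It passed the threshold without TG mouse 2 (adjusted p = 0.0482) and without WT mouse 1 (0.0469). The row shared by *Cd79a*, the partner chain, and *Arhgef1*, a signalling gene of leukocytes, was at 139, 169 and 147 FPKM in the TG and at 166, 207 and 233 FPKM in the WT mice. On that row TG mouse 2 was above WT mouse 1 (log2 fold change −0.40, adjusted p = 0.0977), and how much of it was *Cd79a* cannot be told apart.

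By level, the order of the mean FPKM was the same in both genotypes, from *Cd79b* through *Cd3g*, *Cd3e*, *Lck*, *Cd8a*, *Cd3d* and *Cd4* down to *Ms4a1*. *Cd3g* and *Cd3e* did not separate, since *Cd3g* was the higher in only 2 of 3 mice of either genotype. In WT mice the lower end was equally close, with *Cd8a* above *Cd3d*, *Cd3d* above *Cd4* and *Cd4* above *Ms4a1* in 2 of 3 mice each. In TG mice each of these held in 3 of 3, but TG mouse 1 had near ties. Its *Cd8a* and *Cd3d* were both at 13.9 FPKM, and its *Cd4* and *Ms4a1* were at 8.17 and 8.14 FPKM.

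Ratios within a mouse compare the T cell genes with the B cell genes. All 28 pairs of the 8 genes were compared with a two-sided exact permutation test, which cannot go below p = 0.1 with 3 mice against 3, and the lowest adjusted p over the 28 was 0.175. Of the 12 ratios of a B cell to a T cell gene, 10 were lower in every TG mouse than in every WT mouse, and the 2 that overlapped were those to *Cd4*. The 12 ratios all rest on *Cd79b* and *Ms4a1*, so they are not separate results. For none of the 28 pairs was a share over pairs of other genes computed. *Cd79b* stood at 1.58, 1.57 and 1.32 times *Cd3e* in the TG and at 1.75, 1.84 and 2.86 times in the WT mice. The groups did not overlap, although WT mouse 1 was close to the highest TG mouse (log2 difference −0.50, exact permutation p = 0.1, adjusted 0.175). Without WT mouse 3 the difference was −0.27. *Ms4a1* to *Cd3e* gave 0.236, 0.206 and 0.194 in the TG and 0.277, 0.257 and 0.434 in the WT mice, a log2 difference of −0.57 that was −0.34 without WT mouse 3. The ratio of *Cd79b* to *Ms4a1* was similar, at 7.04 ± 0.506 in TG and 6.70 ± 0.413 in WT mice (SD, n = 3 each), and overlapped.

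Among the T cell genes, 6 of 15 ratios had no overlap, and 5 of these involved *Cd4*. *Cd4* stood at 0.587, 0.629 and 0.629 of *Cd8a* in the TG and at 1.04, 0.935 and 0.893 in the WT mice. The means were 0.615 ± 0.0241 and 0.955 ± 0.0736 (SD, n = 3 each), and the log2 difference of −0.63 ran from −0.68 to −0.57 when each mouse was left out (exact permutation p = 0.1, adjusted 0.175). Taken to *Cd8b1*, the other CD8 chain, *Cd4* gave 0.200, 0.248 and 0.268 in the TG and 0.407, 0.376 and 0.348 in the WT mice. The other *Cd4* row to *Cd8a* gave 0.551, 0.649 and 0.563 against 0.926, 0.730 and 0.884. In each version all TG mice were below all WT mice. The remaining ratio with no overlap was that of *Cd3g* to *Cd8a*, at a mean of 2.30 in TG and 2.74 in WT mice.

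**Figure D2:**
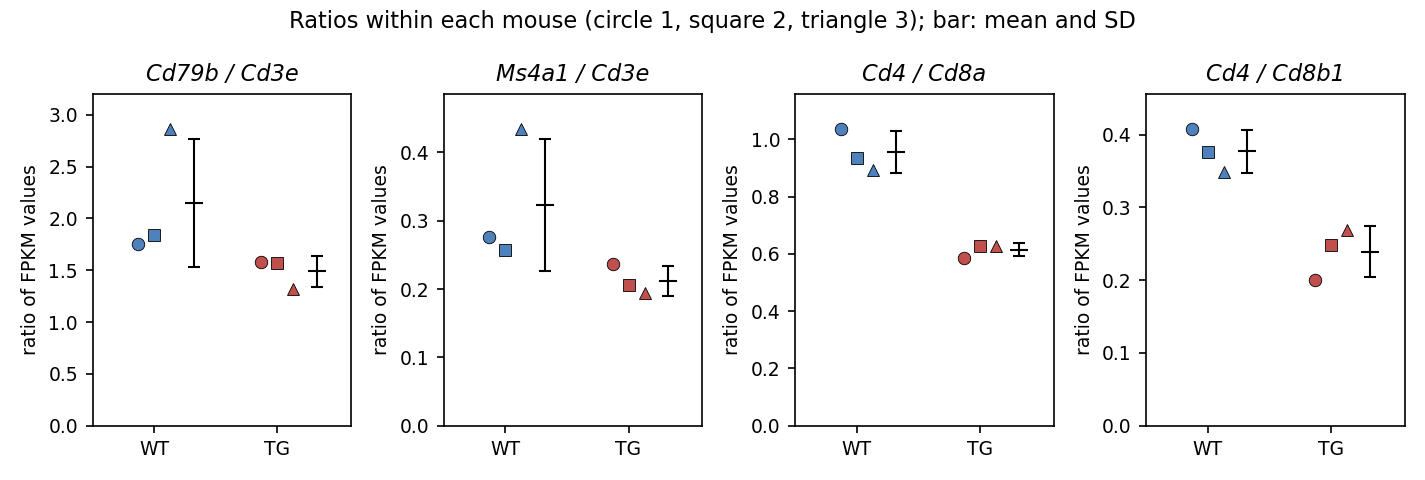
Ratios of FPKM values within each WT (blue) and TG (red) mouse, each panel on its own axis from 0, with the mean and SD (n = 3). All TG points lie below all WT points in each panel, and WT mouse 3 (triangle) stands apart in the ratios of Cd79b and Ms4a1 to Cd3e but not in those of Cd4.

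Of 18 genes of T cell receptor signalling, 1 was called lower and 0 higher, against 7.03% of all loci called lower. All 18 had a log2 fold change below 0, as did 51.6% of all tested loci, with a median of −0.36 against −0.01 over all loci. The groups lay apart with TG lower in 7 of the 18 (20.1% of all loci), and 7 had an unadjusted limma p under 0.05 in that direction (16.8% of all loci). The gene called was *Malt1*, a protease that relays receptor signals to NF-κB in T and B cells, at 7.70, 7.40 and 8.02 FPKM in the TG and 9.42, 12.1 and 12.7 FPKM in the WT mice (log2 fold change −0.50, adjusted p = 0.0267). Without TG mouse 2 the list had 3 calls, and without TG mouse 1, TG mouse 3, WT mouse 2 or WT mouse 3 it had 0. *Malt1* was not among those 3 calls (limma adjusted p = 0.0606), and as single mice were left out it kept its call only without WT mouse 1. *Lat*, the adaptor that links the receptor to its downstream enzymes, was at 37.6 to 55.5 FPKM in the TG and 46.0 to 57.7 FPKM in the WT mice (−0.14, adjusted p = 0.565). *Ptprc*, which encodes CD45 on all leukocytes, was at 24.3 to 36.4 against 34.4 to 51.4 FPKM (−0.46, adjusted p = 0.147).

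Of 21 genes of T cell identity, 18 had a row of their own, and 0 of these passed the test by limma, also at an unadjusted p under 0.05. All 18 had a log2 fold change below 0, with a median of −0.26, and in 0 of the 18 were the groups free of overlap. Over all tested loci, 7.03% were called lower and 16.8% had an unadjusted limma p under 0.05 in that direction. A log2 fold change below 0 was found in 51.6% of all loci and no overlap with TG lower in 20.1%. *Thy1*, a surface protein of T cells but not of them alone, had the highest mean FPKM of the list. It was at 88.0, 159 and 136 FPKM in the TG and 130, 134 and 146 FPKM in the WT mice. The part of other cells in the *Thy1* values was not tested. *Cd8b1* was at 40.8, 61.9 and 50.6 FPKM in the TG and 42.1, 58.4 and 58.5 FPKM in the WT mice (log2 fold change −0.06, adjusted p = 0.851), which is the pattern of *Cd8a*. *Cd2*, an adhesion molecule of T and NK cells, was at 38.9, 57.2 and 38.8 against 50.2, 59.8 and 68.5 FPKM, with an adjusted p of 0.152 that fell to 0.0376 without TG mouse 2. The list had 2 calls without that mouse and 0 without any other.

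Of 19 genes of B cell receptor signalling, 8 were called lower and 0 higher, against 7.03% of all loci called lower, and 14 had no overlap, against 20.1% of all loci. Their median log2 fold change was −0.66. The 8 were *Bank1*, *Btk*, *Blnk*, *Plcg2* and *Prkcb*, an adaptor, a kinase, a linker, a phospholipase and a kinase in turn of the receptor pathway, *Cr2*, a complement receptor that lowers its threshold, and *Cd22* and *Fcgr2b*, which restrain it. *Btk* was at 4.40, 5.32 and 5.15 FPKM in the TG and 7.30, 8.01 and 11.1 FPKM in the WT mice (log2 fold change −0.70, SE 0.15, adjusted p = 0.0218). *Bank1* was at 6.52, 8.03 and 6.46 against 10.9, 12.4 and 18.1 FPKM (−0.86, SE 0.18, adjusted p = 0.0192). *Cd22* was at 11.3, 13.4 and 11.2 against 15.8, 19.7 and 28.7 FPKM (−0.75, adjusted p = 0.0428). The pathway's enzymes and its inhibitory receptors thus stood in the same direction, with WT mouse 3 the highest of the 6 in each of these 3 genes.

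*Cd81*, a tetraspanin of B cells that is also made by many other cell types, was at 287 to 303 FPKM in the TG and 240 to 307 FPKM in the WT mice, a log2 fold change of 0.14 that was −0.18 after quantile normalization. The count of 8 rested on single mice. It was 0 without TG mouse 1, 1 without TG mouse 3, 3 without WT mouse 2 and 3 without WT mouse 3, and it was 2 with no filter on low values.

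Of 20 genes of B cell identity, 17 had a row of their own, 9 were called lower and 0 higher, and 13 had no overlap, with a median of −0.68. Over all loci, 7.03% were called lower and 20.1% had no overlap in this direction. *Pax5*, the transcription factor that commits cells to the B lineage, was at 8.62, 10.8 and 9.63 FPKM in the TG and 14.95, 14.3 and 19.1 FPKM in the WT mice (log2 fold change −0.67, SE 0.13, adjusted p = 0.0151). *Fcer2a*, the low-affinity IgE receptor CD23 of follicular B cells, was at 23.3, 21.9 and 21.3 against 32.6, 42.9 and 57.2 FPKM (−0.93, SE 0.19, adjusted p = 0.0168). *Tnfrsf13c*, the receptor for the B cell survival factor BAFF, was at 9.30, 9.91 and 9.10 against 14.5, 15.8 and 24.2 FPKM (−0.84, adjusted p = 0.0198). In each of these genes all TG mice were below all WT mice, and WT mouse 3 was the highest.

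The other 6 called were *Spib*, a transcription factor of B cells, *Fcrl1*, *Fcmr*, the IgM Fc receptor, *Cd37*, *Cd180* and *Ly86*, which encodes the partner of CD180, with log2 fold changes from −0.96 (*Fcmr*) to −0.62 (*Cd37*). The count of 9 was 2 without TG mouse 1, 0 without TG mouse 3, 5 without WT mouse 2, 5 without WT mouse 3 and 4 with no filter on low values. All 17 genes had a log2 fold change below 0, as did 51.6% of all tested loci.

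Of 6 tested plasma cell genes, 0 passed the limma test, 1 had an unadjusted p under 0.05 and 0 were free of overlap, while 5 had a log2 fold change below 0 (median −0.39). Over all tested loci, 7.03% were called lower and 16.8% had an unadjusted limma p under 0.05 in that direction. No overlap with TG lower was seen in 20.1% of all loci, and 51.6% were below 0. The difference of the plasma cell genes from the B cell lists was not tested. *Xbp1*, the gene with the unadjusted p under 0.05, made up most of the list's summed level in every mouse. It was at 68.7, 94.1 and 76.3 FPKM in the TG and 135, 87.0 and 113 FPKM in the WT mice (log2 fold change −0.47, limma adjusted p = 0.115). *Jchain*, which joins secreted IgM and IgA, ranged from 3.01 to 34.4 FPKM among the TG and from 15.9 to 25.8 FPKM among the WT mice, with TG mouse 2 the highest of all. Without that mouse its adjusted p was 0.0176, and the list had 1 call without TG mouse 2 and 1 without WT mouse 2. The constant-region genes *Ighm*, *Ighd* and *Igkc* had no row of their own.

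**Figure D3:**
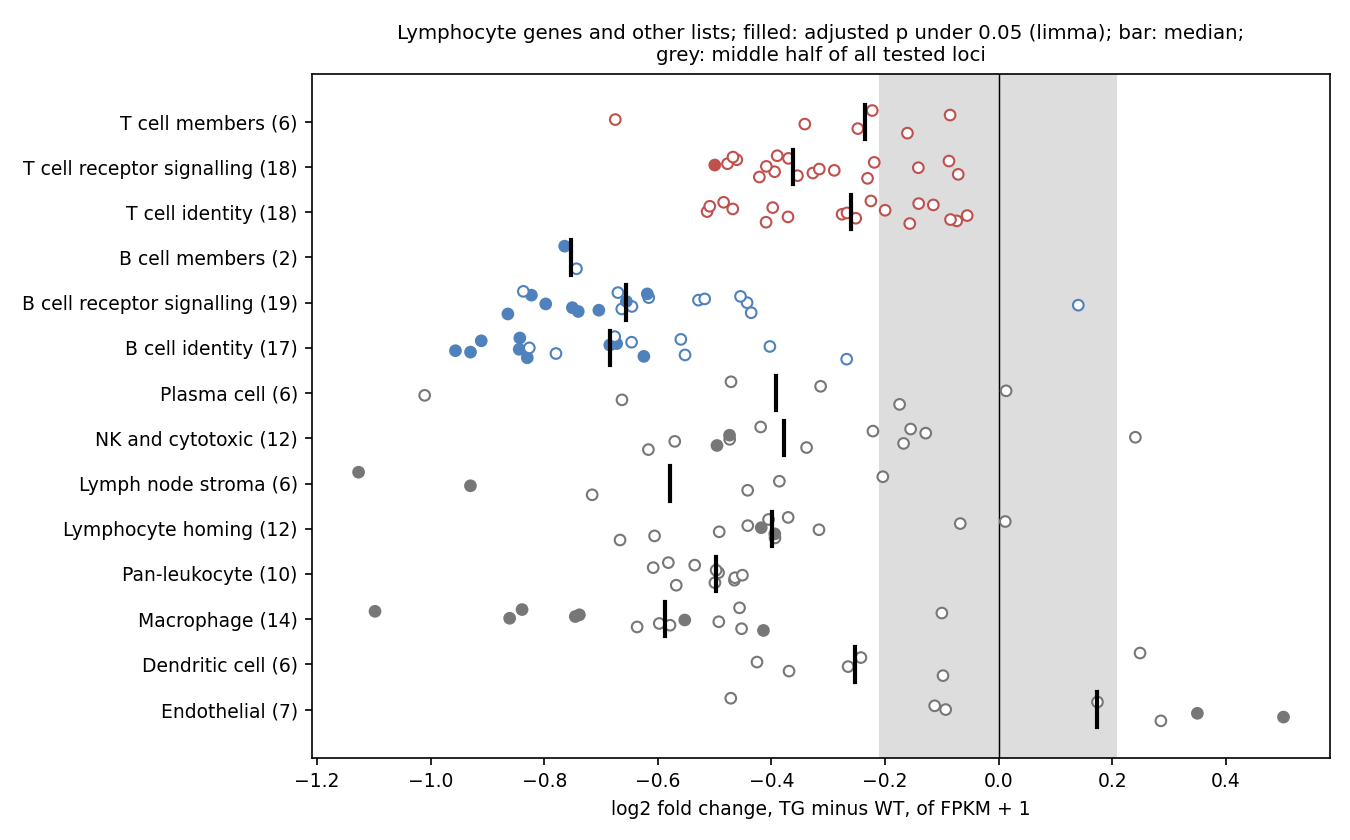
Log2 fold change (TG minus WT, of FPKM + 1) of each tested gene by list, with the number of genes in brackets, filled where the limma adjusted p is under 0.05, and the list's median as a bar. The grey band is the span from the lower to the upper quartile of all tested loci, −0.21 to 0.21. The B cell lists centre at −0.66 and −0.68 and the T cell lists at −0.36 and −0.26.

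Of 8 genes of lymph node stroma and high endothelial venules, 6 were tested, and 2 were called lower (median −0.58), against 7.03% of all loci. *Madcam1*, an addressin of vessels and stroma that lymphocytes bind, was at 1.19, 1.55 and 1.22 FPKM in the TG and 3.94, 3.32 and 5.05 FPKM in the WT mice (log2 fold change −1.13, SE 0.15, adjusted p = 0.00369). *Cxcl13*, the chemokine that draws B cells into follicles, was at 35.4, 27.9 and 37.6 against 56.6, 52.1 and 90.8 FPKM (−0.93, SE 0.22, adjusted p = 0.0288). In both the groups lay apart, as they did in *Ccl19*, a chemokine of the T cell zone, at 213, 396 and 231 against 403, 447 and 481 FPKM (−0.72, adjusted p = 0.0753). The count of 2 was 1 without TG mouse 1, 1 without TG mouse 3 and 1 with no filter.

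*Glycam1*, a product of high endothelial venules, was abundant in every library, at 1841, 2563 and 2235 FPKM in the TG and 1960, 2380 and 3455 FPKM in the WT mice, and overlapped (−0.20, adjusted p = 0.589, and 0.02 without WT mouse 3). *Nkx2-3* was listed at 0, and *Ccl21a* had no row. The summed level of the stroma list was 2093 to 2993 FPKM in the TG and 2427 to 4039 FPKM in the WT mice. Most of this sum was *Glycam1* in every mouse, so it says little of the other stroma genes. The part of the stroma in the B cell values was not tested.

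Genes of all leukocytes had a median between those of the T and the B cell lists. Of 10 pan-leukocyte genes, 0 passed the limma test, while 10 of 10 had an unadjusted p under 0.05 and 7 had no overlap (median −0.50), against 16.8% and 20.1% of all loci. Their summed level was 830 to 1349 FPKM in the TG and 1370 to 1735 FPKM in the WT mice, so that the sums lay apart. *Arhgdib* was at 162, 282 and 199 against 282, 316 and 333 FPKM (adjusted p = 0.0900). The count was 6 without TG mouse 2 and 3 after quantile normalization.

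Macrophage genes were lower in TG mice in 7 of 14 by the test, with a median of −0.59 and 9 of 14 with no overlap, against 7.03% of all loci called lower and 20.1% with no overlap. Their summed level was 781 to 1162 FPKM in the TG and 1390 to 1880 FPKM in the WT mice, and none of the 14 was below the filter. *Cd68*, an endosomal protein of macrophages, was at 38.2, 47.9 and 40.0 against 75.7, 70.3 and 85.0 FPKM (log2 fold change −0.86, adjusted p = 0.00400), and *Lyz2*, lysozyme, was lower by more (−1.10 on the log2 scale, adjusted p = 0.00823). Several genes of the B cell receptor list, such as *Btk*, *Plcg2*, *Fcgr2b* and *Ptpn6*, are also used by macrophages, and the part of these cells in the B cell list was not tested. The macrophage count was 2 without TG mouse 1, 3 without TG mouse 3, 3 without WT mouse 1, 2 without WT mouse 3, 4 with no filter and 12 after quantile normalization.

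Of 7 endothelial genes, 2 were called higher and 0 lower, against 11.6% of all loci called higher, *Kdr*, a receptor for VEGF, from 13.01 to 15.6 FPKM in WT to 17.8 to 19.1 FPKM in TG mice (log2 fold change 0.35, adjusted p = 0.0329) and *Emcn* from 18.6 to 21.6 to 25.3 to 32.3 FPKM (0.50, adjusted p = 0.0222). Of the 7, 4 had a log2 fold change above 0, all of them with no overlap, which 22.8% of all loci showed with TG higher. The other 3 were below 0, *Pecam1* (−0.09) and, named after their values were seen, *Tek* (−0.11) and *Vwf* (−0.47). *Vwf* had no overlap, as had 20.1% of all loci with TG lower. The summed level was 150 to 160 FPKM in the TG and 136 to 145 FPKM in the WT mice. The count of 2 was 0 without TG mouse 3 or WT mouse 2 and 1 without any of the other 4 mice. Skeletal muscle genes, 6 tested and 0 called in either direction, summed to 78.0, 564 and 108 FPKM in the TG and 5.44, 112 and 27.5 FPKM in the WT mice. TG mouse 2, with the most muscle RNA, also had the highest value of the TG mice in each of the 8 lymphocyte genes, and the part of muscle in those values was not tested.

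**Figure D4:**
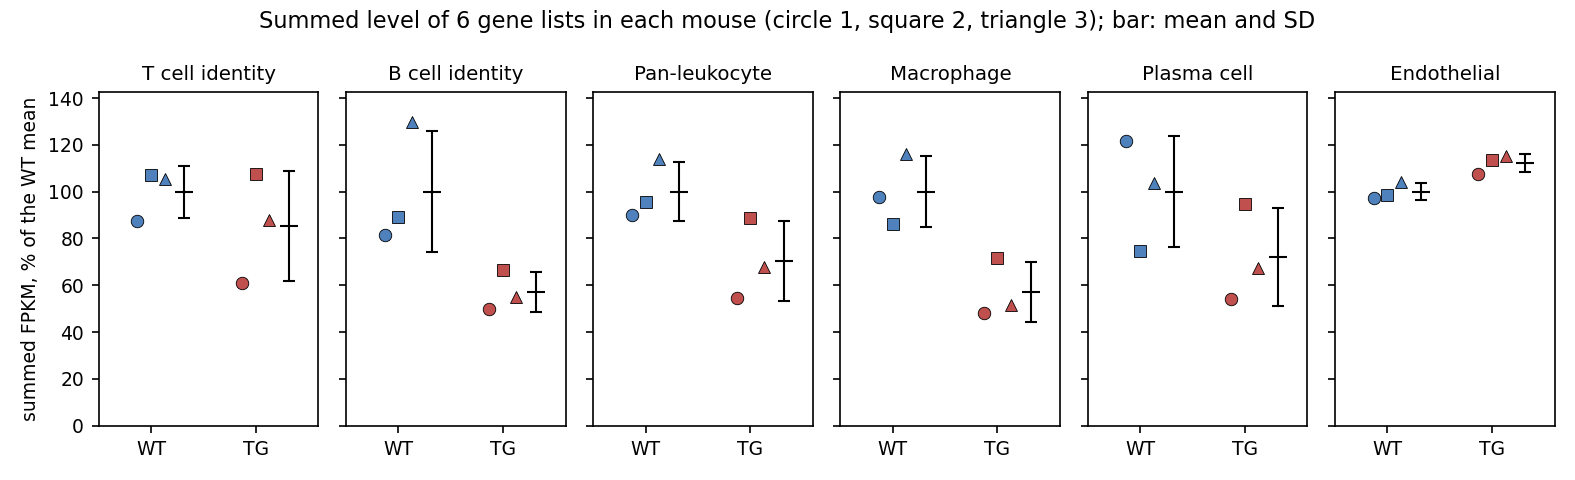
Summed FPKM of 6 gene lists in each WT (blue) and TG (red) mouse, as a percentage of the WT mean of that list, on a shared axis from 0, with the mean and SD (n = 3). The T cell identity and plasma cell sums overlap between genotypes, and most of the plasma cell sum is Xbp1 in every mouse. The B cell identity, pan-leukocyte and macrophage sums are lower in all TG mice, and the endothelial sum is higher.

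Among 1851 tested loci that ranged over at least 1 log2 unit, the genes most like the mean of the T cell genes across the 6 mice included *Ccr7* (Pearson r = 0.99), *Tcf7* (0.99), *Fyb* (0.98) and *Il7r* (0.97). *Ccr7*, the receptor that guides T cells into lymph nodes, was at 15.7, 28.1 and 22.2 FPKM in the TG and 23.5, 32.8 and 29.9 FPKM in the WT mice. *Tcf7*, a transcription factor of T cells, was at 23.8, 53.9 and 47.0 against 48.2, 65.4 and 56.6 FPKM. Both were lowest in TG mouse 1 and highest in WT mouse 2.

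The genes most like the mean of *Cd79b* and *Ms4a1* were *Fcrla* (r = 1.00 after rounding), *Ptpn6*, *Mcoln2*, *Irf5* and *Plcg2* (0.99 or above each). *Fcrla*, an Fc receptor-like protein inside B cells, was at 7.58, 11.6 and 9.90 FPKM in the TG and 13.3, 15.7 and 26.4 FPKM in the WT mice, and like the B cell genes it was highest in WT mouse 3. An r over 0.9 was reached by 49 loci for the T cell genes and by 172 for the B cell genes. These values describe 6 mice that went through the same library preparation at depths that differed, and they carry no test.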

How the data were processed

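Total RNA of iWAT from 3 TG and 3 WT mice was sequenced by the authors as TruSeq libraries, single-end, 100 bases, with no strand kept. The submitters' processing notes name CASAVA 1.8.2, TopHat2 2.0.9, Bowtie2 2.1.0, Cufflinks 2.2.1 and mm10, and the annotation is not given in the sources used here. The authors deposited FPKM values per gene and mouse, so no count test was run and the absolute depth is unknown. From steps in values under 0.3 FPKM, of which only 12.5% to 15.3% fell on a step, depth relative to WT mouse 3 was roughly 0.690 to 1.14 in TG and 0.943 to 1.41 in the other WT mice, so low values are less precise in the shallower libraries. Locus starts, counted from 0 in the table, are printed from 1.

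From the deposited values, log2(FPKM + 1) was tested with limma 3.58.1 in R 4.3.3 (trend, two-sided, no covariates) over 11692 loci, with Benjamini-Hochberg adjustment and a threshold of 0.05. Fold changes on this scale understate changes of low genes. The p-values rest on the spread between these 6 mice. On simulated data for this comparison over 11692 loci, 3-fold changes were called in 95% and 2-fold changes in 78% of cases, and 4.42% of calls fell on unchanged genes. The simulation gave each locus independent noise and changed far fewer loci than were called in the data. Its shares are therefore not error rates of the calls reported here. Ratios were tested by exact permutation (20 arrangements, scipy 1.17.1).

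The members and lists were chosen with earlier results of these data known. Genes were named by rule: all members, in each list the 3 with the highest mean FPKM and those with an adjusted p under 0.05, and the 5 loci most like each member mean, besides *Hlx*. One locus that the rule names is not reported here. *Xist*, *Ms4a5*, the joint *Cd79a* row and the other *Cd4* row were added after values were seen. Promoters came from RefSeq and gene positions from GENCODE (GRCm38). Alternatives were no filter, a filter blind to genotype, median-ratio scaling, quantile normalization, a pseudocount of 0.1, eBayes with no trend, a block on replicate number, an adjusted p under 0.01, and the removal of 1 mouse at a time. Figures were drawn with matplotlib 3.10.9.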

Additional observations from a re-analysis of the deposited data

How the results depend on the processing

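Over all tested loci, 822 were called lower and 1352 higher. The lower count ran from 329 to 906 and the higher count from 780 to 1295 as each mouse was left out, and an adjusted p under 0.01 gave 199 and 569. The number of T cell genes called lower was 0 in the reported fit and ran from 0 to 1 over the mice left out, 1 being *Cd4* without TG mouse 2. That of B cell genes was 1 and ran from 0 to 2, and it was 0 with no filter and 0 at an adjusted p under 0.01. No T or B cell gene was called higher in any setting. Over all tested loci, mice with the same number hardly deviated together (correlations 0.0129, 0.0344 and 0.0701), and the reported fit did not pair them. The summed T cell genes and the summed muscle genes, however, each ranked mouse 2, 3 and 1 from high to low in both genotypes. Whether the numbers pair the mice in such genes was not tested. With a replicate block on that number, 1 T cell gene was called lower, *Cd4* (adjusted p = 0.0315), the 6 muscle genes were called higher, and the calls of 4 pan-leukocyte, 4 macrophage, 3 T cell receptor, 1 NK and 0 endothelial genes (the last higher, the others lower) stood against 0, 7, 1, 2 and 2.

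Of 1145 values of single named genes under an alternative, 930 kept their direction and side of the threshold, 161 lost the call, 29 gained it and 25 changed sign. Left-out mice moved the log2 fold change of *Cd3d* from −0.28 to 0.013, of *Cd8a* from −0.24 to 0.14, of *Cd8b1* from −0.21 to 0.093, of *Thy1* from −0.32 to 0.10, of *Lat* from −0.25 to 0.028 and of *Nkg7* from −0.32 to 0.056. The same range was −0.39 to 0.022 for *Glycam1*, −0.11 to 0.14 for *S1pr1*, −0.20 to 0.0037 for *Pecam1*, −0.44 to 0.10 for *Col1a1*, −0.30 to 0.15 for *Col1a2*, −0.013 to 0.12 for *Lipe*, −0.037 to 0.12 for *Plin1* and −0.28 to 0.017 for *Krt8*. Quantile normalization turned *Cd81* to −0.18, *S1pr1* to −0.064, *Lipe* to −0.24 and *Plin1* to −0.27. The cause was not tested. The median of all tested loci stayed between −0.03 and −0.01 in every setting. Absolute depth is unknown, so the counting error of low genes such as *Klrk1* and *Madcam1* could not be given.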

Other observations

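Genes of NK and other cytotoxic cells, which share effector proteins with CD8 T cells, were partly lower in TG mice. Of 12 tested, 2 were called lower and 0 higher (median log2 fold change −0.38), against 7.03% of all loci called lower. *Gzma*, a granule protease, was at 3.45, 3.88 and 2.67 FPKM in the TG and 5.65, 4.52 and 5.10 FPKM in the WT mice (−0.50, limma adjusted p = 0.0425), and *Klrk1*, the activating receptor NKG2D, was at 0.885, 1.08 and 1.09 against 1.84, 2.12 and 1.48 FPKM (−0.47, adjusted p = 0.0455). Both had no overlap. The count was 0 without TG mouse 1, TG mouse 3, WT mouse 1 or WT mouse 3, 1 without WT mouse 2 and 1 with no filter on low values. *Ccl5*, a chemokine of effector T and NK cells, was the most abundant of the list at 114, 196 and 135 against 169, 295 and 220 FPKM, and overlapped (−0.62, adjusted p = 0.135).

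Of 12 genes that guide lymphocytes between blood, vessel wall and lymph node, 2 were called lower and 0 higher (median −0.40), against 7.03% of all loci called lower. They were *Itga4*, an integrin chain that binds the addressin MAdCAM-1, with a log2 fold change of −0.39 (adjusted p = 0.0457), and *Lta*, lymphotoxin alpha, at 3.70, 3.74 and 3.90 FPKM in the TG and 4.45, 5.95 and 5.89 FPKM in the WT mice (−0.42, adjusted p = 0.0464). The count was 0 without TG mouse 1, TG mouse 3, WT mouse 2 or WT mouse 3, 1 without TG mouse 2, 4 without WT mouse 1 and 0 with no filter. *S1pr1*, the receptor by which lymphocytes leave lymphoid organs, overlapped at 30.8, 37.8 and 44.3 against 36.7, 38.3 and 35.7 FPKM.

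Among 7 tested adipocyte genes 2 were called lower, *Adipoq* (−0.85, adjusted p = 0.0172) and *Retn*, which encodes resistin (−2.02, adjusted p = 0.00346), against 7.03% of all loci. A log2 fold change above 0 was found in 3 of the 7, *Fabp4* (0.28, with no overlap) and, named after their values were seen, *Lipe* (0.05) and *Plin1* (0.04), both of which were below 0 without TG mouse 1 and after quantile normalization, and the summed levels of the list overlapped. The count was 1 without TG mouse 3, 1 without WT mouse 2 and 1 with no filter. Of 6 dendritic cell, 5 fibroblast and 6 epithelial genes 0 were called by limma, with list medians of −0.25, −0.15 and −0.38. Each list had 1 gene at an unadjusted limma p under 0.05 in the lower direction, against 16.8% of all loci.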
